A study of Drosophila melanogaster with 6 samples.

Results

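The genes vfl, sbb and disco encode the Drosophila transcription regulators Zelda, Scribbler and Disconnected. They were chosen by their FPKM in the deposited tables, as large falls in both treated groups of eye discs, and make up 3 of the 15904 loci in those tables. Their lower level in both comparisons with the control is therefore the rule that selected them, and the values of those comparisons are given as a description. FPKM is the number of sequenced fragments per kilobase of transcript, scaled to the mapped fragments of a library, a level corrected for length that can be compared between genes.

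Total RNA from eye discs of Drosophila melanogaster larvae, at the wandering stage late in the third instar, was sequenced after ribosomal RNA depletion, with 30 disc pairs in each of 6 libraries. The RNAi group (2 libraries, genotype w1118; sev-GAL4/UAS-GFP';hsromegaRNAi) carried an RNAi construct for Hsromega, a long non-coding RNA of the nucleus. The overexpression group (2 libraries, w1118; sev-GAL4/UAS-GFP; EP3037) carried EP3037 for raising Hsromega, and the control (2 libraries) was w1118; sev-GAL4/UAS-GFP. All groups thus shared the w1118 background, the sev-GAL4 driver and UAS-GFP, and the control carried neither the RNAi transgene nor the EP insertion. The sevenless driver acts in a subset of the retinal cells behind the furrow, whereas RNA came from whole discs. The authors pooled the libraries of a group into 1 FPKM value, so there is no spread between libraries, and the depth is unknown. The labels do not tell whether replicate libraries had separate crosses or cultures, so the deposited p-values measure only the spread between these samples, which may be technical.

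Zelda is a zinc finger protein that binds closed chromatin in the early embryo and primes the zygotic genome for transcription; later it is also made in larval neuroblasts. Scribbler, also known as Brakeless or Master of thickveins, is a nuclear corepressor. It works with Atrophin, lowers thickveins expression in the wing disc, and is needed in photoreceptors for the outer axons to stop in the lamina, where it keeps runt off. Disconnected is a zinc finger protein named for larvae in which the visual nerve fails to connect to the brain, and it acts redundantly with its paralogue disco-r in the ventral head and appendages.

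The 3 genes differ in structure. In the Ensembl 115 annotation of the dm6 assembly vfl (listed as zld, FBgn0259789) lies on the minus strand of chromosome X from 19766465 to 19783548. It has 5 transcripts, the longest with 8011 nt in 3 exons and a longest coding length of 4788 nt. The gene sbb (FBgn0285917) lies on the minus strand of 2R from 18278198 to 18357296, a span of 79099 bases, with 7 transcripts whose lengths run between 3080 and 10397 nt, up to 13 exons in the longest and up to 6990 nt of coding sequence. The gene disco (FBgn0000459) lies on the minus strand of X from 16210598 to 16216750 and is the compact one, with 2 transcripts, the longest with 3247 nt in 2 exons and 1704 nt of coding sequence. The longest annotated 3′ UTR has 2972 nt in vfl, 1905 nt in sbb and 974 nt in disco. The deposited loci of vfl and disco have the same ends as the annotated genes. The deposited interval of sbb starts at 18277439 and takes in other genes, which are described further on.

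The level of vfl was 3.52 FPKM in RNAi discs and 3.61 FPKM in overexpression discs, against 30.8 FPKM in control discs. These are 11.4% and 11.7% of the control level. The treated groups were almost level with each other and both far below the control. In whole discs, fewer cells that express a gene and less of its RNA per cell cannot be told apart. The log2 fold over control was -3.13 for RNAi, with an error of 1.02, and -3.09 for overexpression, with an error of 0.99. The error is the log2 fold divided by the statistic in the authors' deposited table and is called the implied SE.

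The level of sbb was 6.09 FPKM in RNAi discs and 6.12 FPKM in overexpression discs, against 46.0 FPKM in control discs. It was the highest of the 3 genes in every group, and its treated values were the closest pair. The log2 fold over control was -2.92 ± 1.14 (implied SE) for RNAi and -2.91 ± 1.12 for overexpression, or 13.2% and 13.3% of the control level.

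The level of disco was 1.60 FPKM in RNAi discs and 1.10 FPKM in overexpression discs, against 11.3 FPKM in control discs. It was the lowest of the 3 in every group, and in overexpression discs it stood just above the limit of 1 FPKM used here for an expressed locus. The log2 fold over control was -2.82 ± 1.02 (implied SE) for RNAi and -3.36 ± 1.03 for overexpression, or 14.1% and 9.72% of the control level.

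**Figure D1:**
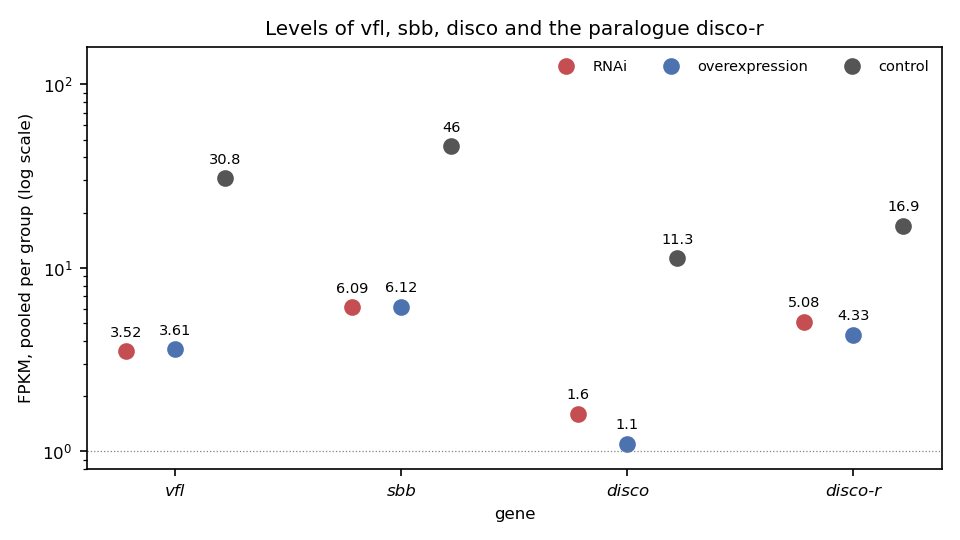
FPKM, pooled per group, of vfl, sbb, disco and the paralogue disco-r in RNAi, overexpression and control discs on a log axis; each point is 1 group and has no error because no value per library was given. The treated points of each gene lie close together and below the control point, with disco at 1.60 and 1.10 nearest to the dotted line at 1 FPKM.

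The level placed the genes differently among the expressed loci of each group. In RNAi discs 33.0% of the 9245 expressed loci lay below sbb, 21.3% below vfl and 7.94% below disco. In overexpression discs the shares of 9414 loci were 34.8%, 22.9% and 1.89%. In control discs, with 9529 loci, they were 84.0%, 76.1% and 47.2%, so that disco stood near the middle there and the other genes above most expressed loci. The order sbb, vfl, disco held in all 3 groups, and without values per library no spread tells whether neighbours in that order differ.

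The authors' deposited table called all 3 genes lower in RNAi discs at q of 0.05 or less, with q = 0.0074 for vfl, 0.038 for sbb and 0.014 for disco. By this rule 0.610% of the 11314 tested loci were lower in RNAi discs. In overexpression discs the authors' deposited table gave q = 0.0099 for vfl, 0.041 for sbb and 0.0026 for disco, where 1.06% of the 11372 tested loci were called lower. Since the genes were picked for these falls, nothing is read from the count. None of the 3 passed when Benjamini-Hochberg adjustment was recomputed over each deposited table alone: the adjusted p lay between 0.137 and 0.417 for RNAi and between 0.126 and 0.306 for overexpression.

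By size of fold, vfl, sbb and disco stood at positions 75, 84 and 90 from the lowest of the 9891 loci expressed in RNAi or control discs. They stood at positions 83, 101 and 73 of 9977 for overexpression. Loci at 0 in the treated group have no measurable fold and were counted as lowest in this order. Values above 0 in both groups were given for 9790 of the 9891 loci and 9870 of the 9977. The folds of vfl, sbb and disco spanned 0.30 on the log2 scale for RNAi and 0.45 for overexpression. Both spans were smaller than the smallest implied SE among them, 1.02 for RNAi and 0.99 for overexpression. The deposited tables hold no test of 1 treated group against the other. The log2 of overexpression over RNAi was 0.036 for vfl, 0.0082 for sbb and -0.54 for disco, each smaller than the implied SE of its folds over the control. Both comparisons use the same control value, so a control that was high for a gene would lower both of its folds.

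Hsromega itself, the target of both treatments, was at 204 FPKM in RNAi discs and 376 FPKM in overexpression discs, against 202 FPKM in control discs. The authors' deposited table gave q = 0.997 for RNAi and 0.758 for overexpression, so the target does not check the labels, and directions are those of the groups as labelled. Genes that mark the retina were present in all groups. Their summed level over 14 markers was 234 FPKM in RNAi discs, 218 in overexpression discs and 402 in control discs. Markers of the antennal disc, which adjoins the eye disc, summed to 45.2 FPKM in RNAi, 34.4 in overexpression and 103 in control discs. Salivary gland markers summed to 3295 FPKM in RNAi, 83.4 in overexpression and 51.7 in control discs and fat body markers to 188 FPKM in RNAi, 101 in overexpression and 53.6 in control discs. In RNAi discs 4 of 6 tested salivary gland markers and 4 of 7 fat body markers were called higher in the authors' deposited table, where 0.212% of tested loci were. In overexpression discs, where 0.132% of tested loci were called higher, none of either was called by the authors' Cuffdiff test; at an unadjusted deposited p of 0.05 or less, 0 salivary gland and 3 fat body markers were higher. Glia markers summed to 202 FPKM in RNAi, 197 in overexpression and 198 in control discs, haemocyte markers to 41.2 FPKM in RNAi, 38.7 in overexpression and 32.1 in control discs, muscle markers to 1388 FPKM in RNAi, 2611 in overexpression and 2267 in control discs, and neuroblast markers to 108 FPKM in RNAi, 79.5 in overexpression and 214 in control discs. None of these last 4 lists had a called gene in the authors' Cuffdiff tests, and at an unadjusted deposited p of 0.05 or less 1 muscle marker was lower in RNAi discs and 1 glia marker higher in overexpression discs. Most of the glia sum came from nrv2 and Gli, at 86.1 and 77.2 FPKM in control discs. Of the 8 glia markers, 4 were below the control for RNAi and 5 for overexpression. For instance, repo was at 2.40 FPKM in RNAi and 2.16 in overexpression discs, against 3.53 in control discs. The locus holding gcm was at 2.64 FPKM in RNAi and 3.56 in overexpression discs, against 1.19 in control discs. Over all expressed loci, 5235 of 9891 were below the control for RNAi and 4807 of 9977 for overexpression. Of the 8 expressed neuroblast markers, 5 were below the control for RNAi and 6 for overexpression. The highest of them in control discs, brat, was at 52.5 FPKM in RNAi and 34.7 in overexpression discs, against 94.3 in control discs. In contrast, dpn was at 4.74 FPKM in RNAi and 6.43 in overexpression discs, against 3.63 in control discs. The gene ase was at 1.55 FPKM in RNAi and 1.72 in overexpression discs, against 1.14 in control discs. No marker of the retinal, antennal, glia, salivary gland, fat body, haemocyte, muscle or neuroblast list was at 0 in any group. The part of other tissues in the levels of vfl, sbb and disco was not tested.

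Folds followed transcript length in both comparisons, and the 3 genes sit at different places on that trend. The longest transcript of sbb is longer than that of 98.7% of the expressed loci, that of vfl longer than 97.1% and that of disco longer than 76.1%; the median is 1838 nt. A running median of the fold, over the 250 loci on each side in order of length, stood at -1.12 for loci as long as sbb, -1.02 for those as long as vfl and -0.21 for those as long as disco in RNAi discs. In overexpression discs it stood at -1.26, -1.19 and -0.27. With this trend subtracted, the fold of disco was -2.54 for RNAi and -2.97 for overexpression, that of vfl -2.07 and -1.86, and that of sbb -1.78 and -1.63. These folds are on the log2(FPKM + 0.1) scale, which understates the change of low genes. All 3 genes thus stayed below the running median at their own length, disco by the most in both comparisons. The implied SE of their folds lay between 1.02 and 1.14 for RNAi and between 0.99 and 1.12 for overexpression. The order among the 3 was not tested. What lies behind the trend was not tested.

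**Figure D2:**
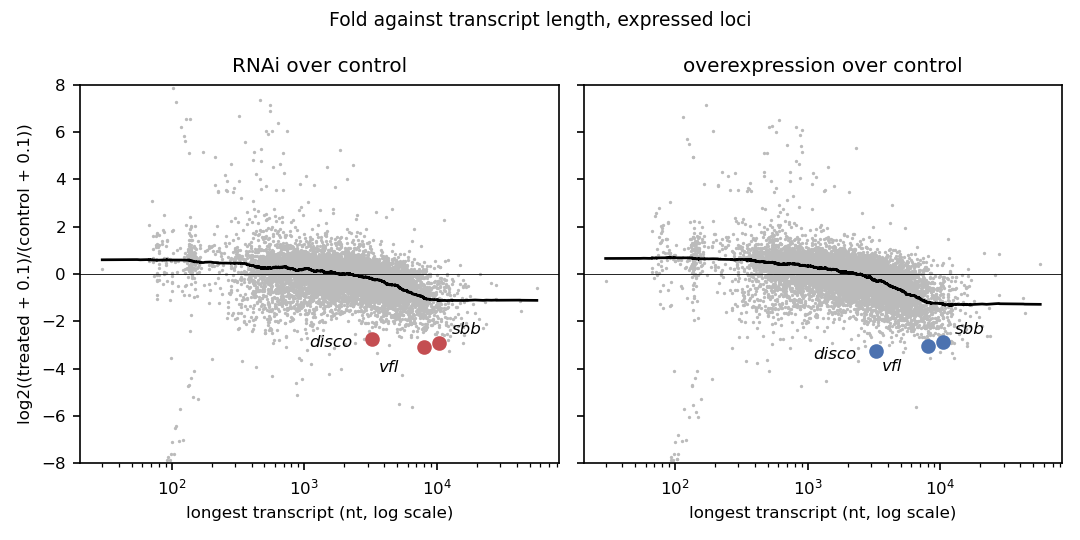
Log2 of (treated + 0.1) over (control + 0.1) against the longest annotated transcript on a log axis, for RNAi (left) and overexpression (right); grey points are the expressed loci within the axis, and the black line is the running median. The coloured points of disco, vfl and sbb lie below the line, at residual folds of -2.54, -2.07 and -1.78 for RNAi and -2.97, -1.86 and -1.63 for overexpression.

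Among tested loci of 8000 nt or more, the class of vfl and sbb, the authors' deposited table called 20 of 317 lower in RNAi discs (6.31%) and 39 of 315 in overexpression discs (12.4%). Among those of 2000 to under 4000 nt, the class of disco, it called 8 of 3116 (0.257%) and 20 of 3130 (0.639%). The share of called loci was thus above that over all loci in the length class of vfl and sbb and below it in that of disco. By chromosome arm, 16 of 1794 tested loci on X (0.892%) were called lower in RNAi discs and 38 of 1803 (2.11%) in overexpression discs. On 2R these were 12 of 2353 (0.510%) and 23 of 2377 (0.968%). The median log2 fold of the expressed loci on X was -0.21 for RNAi and -0.20 for overexpression, against -0.04 and 0.03 over all expressed loci. The classes of length and arm were chosen after the data were examined.

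The paralogue disco-r, which lies 61.6 kb from disco on X and is transcribed from the same strand, was at 5.08 FPKM in RNAi discs and 4.33 FPKM in overexpression discs, against 16.9 FPKM in control discs. Its level was above that of disco in every group. The log2 fold over control was -1.74 ± 0.89 (implied SE) for RNAi and -1.97 ± 0.88 for overexpression, and it was not called in the authors' deposited table, at q = 0.116 and 0.064. After the length trend was subtracted its fold was -0.80 for RNAi and -0.85 for overexpression. Both paralogues had their lowest level in overexpression discs. The difference between their folds was not tested.

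Other loci near disco were at or above their control level. The U5 small nuclear RNA gene snRNA:U5:14B, 37.3 kb away, was at 358 FPKM in RNAi discs, 262 in overexpression discs and 176 in control discs, and the U2 gene snRNA:U2:14B at 16.4 FPKM in RNAi, 32.3 in overexpression and 12.5 in control discs. Both belong to multigene families, so how fragments were divided among copies is uncertain. Beyond disco-r, the locus that joins CG42353 with CG42354 was at 19.5 FPKM in RNAi, 19.1 in overexpression and 18.3 in control discs. None of these 3 loci was called in the authors' deposited table.

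None of the 4 neighbours of vfl passed the test. CG12702, 1.59 kb away, was at 4.15 FPKM in RNAi discs, 3.55 in overexpression discs and 7.37 in control discs. Pmp70, which encodes a peroxisomal membrane protein and lies 7.18 kb away, was at 3.64 FPKM in RNAi, 5.76 in overexpression and 11.5 in control discs. On the other side pico, which encodes an adaptor of the actin cytoskeleton, was at 9.49 FPKM in RNAi, 6.23 in overexpression and 18.1 in control discs, and the nucleoporin gene Nup205 at 8.14 FPKM in RNAi, 6.42 in overexpression and 19.9 in control discs. Their log2 folds lay between -1.66 and -0.83 for RNAi and between -1.63 and -0.998 for overexpression, with implied SE between 0.84 and 1.52, against -3.13 and -3.09 for vfl. The q in the authors' deposited table was 0.112 or more, and the difference from vfl was not tested.

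Other genes lie within the span of sbb. Of 7 loci that overlap it, 6 reached 1 FPKM in some group. The gene pen-2, which encodes a subunit of gamma-secretase and overlaps the 3′ end of sbb on the opposite strand, was at 57.5 FPKM in RNAi discs and 62.6 in overexpression discs, against 30.6 in control discs. CG14505, the one on the same strand as sbb, was at 1.25 and 2.00 FPKM in RNAi and overexpression discs, against 7.47 in control discs. CG18540, on the opposite strand, was at 0.629 FPKM in RNAi, 1.77 in overexpression and 2.81 in control discs, and CG18537 at 2.59 FPKM in RNAi, 4.41 in overexpression and 3.20 in control discs. The joined locus of CG18538 and CG18539 was at 2.76 FPKM in RNAi, 4.64 in overexpression and 7.29 in control discs, and that of CG14502 and CG18536 at 5.11 FPKM in RNAi, 5.96 in overexpression and 5.31 in control discs. Their implied SE lay between 5.91 and 14.6 on the log2 scale, which leaves no fold among them measurable, and none was called in the authors' deposited table. The library kit marks strand, but no source used here tells if fragments were counted by strand, so reads of sbb and of genes within it are uncertain. Just outside, Ote, which encodes a protein of the nuclear lamina, was at 33.0 FPKM in RNAi, 37.6 in overexpression and 36.8 in control discs and CR44420 at 0.852 FPKM in RNAi, 1.45 in overexpression and 1.26 in control discs. On the other side the immune-induced genes IM23 and IM1 were listed at 0 in control discs; IM23 was at 0.545 FPKM in RNAi and 1.68 FPKM in overexpression discs and was called higher in overexpression discs, at q = 0.023 in the authors' deposited table. IM1 was at 0.362 FPKM in RNAi and 1.09 FPKM in overexpression discs and was not called.

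**Figure D3:**
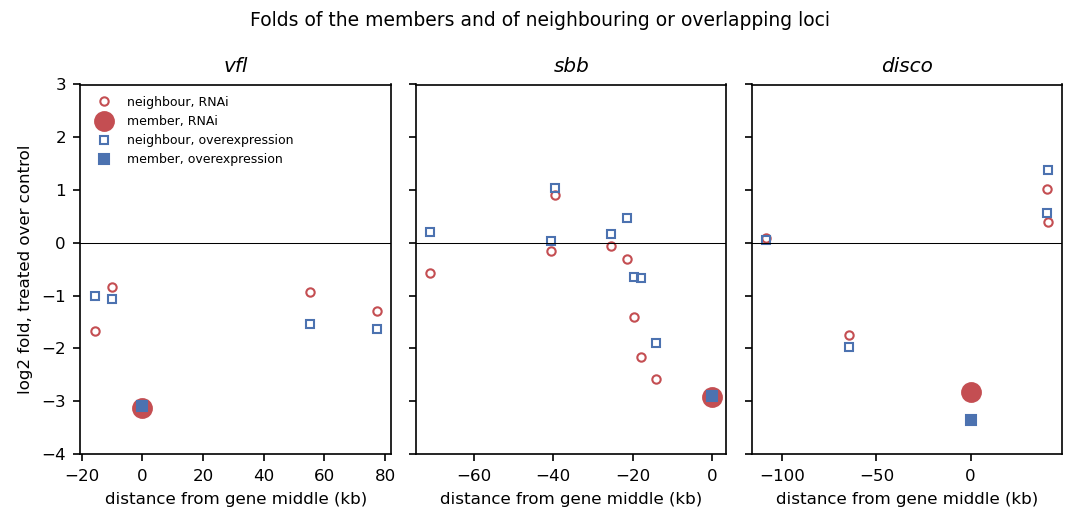
Log2 fold over control of vfl, sbb and disco (filled) and of their neighbours (open) against the distance in kb from the middle of each gene to the nearest edge of a flanking locus or the middle of an overlapping one, with RNAi as circles and overexpression as squares; 2 loci listed at 0 in control discs have no fold. Each of the 3 genes lies below all neighbours shown in its panel, at -3.13 and -3.09 for vfl, -2.92 and -2.91 for sbb and -2.82 and -3.36 for disco.

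The loci with the most similar pair of folds were sought among 6910 others with at least 5 FPKM in control discs and values above 0 in every group. Likeness was the Euclidean distance between the 2 log2 folds, over 3 group values, so it uses the shared control and is a description. The nearest to vfl was osa, which encodes a subunit of the Brahma chromatin remodelling complex, at a distance of 0.046. It was at 5.54 FPKM in RNAi discs and 5.89 in overexpression discs, against 48.7 in control discs. CG15765 followed at 0.076, nej, which encodes the CBP histone acetyltransferase, at 0.20, sbb at 0.28 and nocte, a gene needed to set the daily clock by temperature, at 0.31.

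The nearest to sbb was nej, at a distance of 0.081, with 3.37 FPKM in RNAi discs and 3.35 in overexpression discs, against 26.3 in control discs. CG11873 followed at 0.090, CG17233 at 0.22, osa at 0.26 and vfl at 0.28. The nearest to disco was nocte, at 0.10, with 8.11 and 6.14 FPKM in RNAi and overexpression discs, against 61.4 in control discs. CG10555 followed at 0.20, the non-coding locus CR40962 at 0.28, HERC2, named for a ubiquitin ligase, at 0.29 and bnb at 0.35. All 5 neighbours of disco by pattern lie on X, and like disco each was lower in overexpression than in RNAi discs. Of the 10 loci other than the 3 genes themselves, 7 lie on X, 6 were called lower in both comparisons in the authors' deposited table and 4 in neither. These loci were picked by the same folds, so nothing is read from the counts; of all tested loci 1794 of 11314 lie on X, and 0.610% for RNAi and 1.06% for overexpression were called lower. The 4 not called, CG15765, CG17233, nocte and bnb, had implied SE between 1.25 and 2.73. Of these 10, the 9 with an annotated length had longest transcripts between 2406 and 15917 nt.

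**Figure D4:**
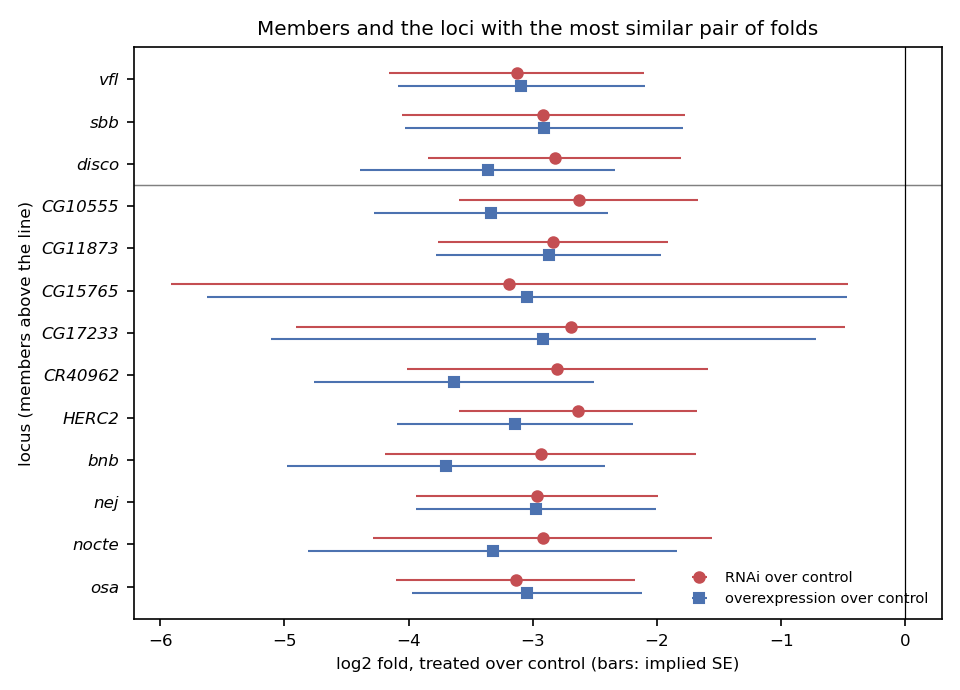
Log2 fold over control for vfl, sbb and disco (above the grey line) and for the 10 other loci nearest to any of them by the pair of folds, with RNAi as circles and overexpression as squares; bars are the implied SE. Points of all 13 loci lie between -2.63 and -3.70, and the bars of CG15765 and CG17233 are the widest.

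The counts of the gene lists are read against all tested loci. Of these the authors' deposited table called 0.610% lower for RNAi and 1.06% for overexpression, and 409 of 11314 and 635 of 11372 were lower at an unadjusted p of 0.05 or less. The list of pioneer factors and Zelda co-factors holds 10 genes, all tested and expressed. The authors' deposited table called nej, fs(1)h and opa lower in both comparisons, 3 of 10, against 0.610% and 1.06% of all tested loci, and none higher. The list was chosen with earlier results of these data known, among them the fall of nej, so nothing is read from this count. The longest transcripts of nej and fs(1)h have 15729 and 9949 nt. Of all tested loci of 8000 nt or more, 6.31% were called lower for RNAi and 12.4% for overexpression. The BET bromodomain gene fs(1)h was at 7.19 FPKM in RNAi discs and 6.55 in overexpression discs, against 39.2 in control discs. The zinc finger pioneer factor gene opa was at 3.21 FPKM in RNAi and 2.19 in overexpression discs, against 13.7 in control discs. The median of the list was -0.95 for RNAi and -1.28 for overexpression, against -0.04 and 0.03 over all expressed loci. Once the length trend was subtracted it was -0.69 for RNAi and -0.53 for overexpression. Of the other pioneer factors, grh was at 18.1 FPKM in RNAi and 15.0 in overexpression discs, against 61.1 in control discs, and was not called (q = 0.443 and 0.353 in the authors' deposited table). The locus holding Trl, the GAGA factor gene, was at 37.1 FPKM in RNAi and 35.4 in overexpression discs, against 77.4 in control discs. Clamp, whose product binds GA repeats as the GAGA factor does, was at 45.2 FPKM in RNAi and 44.1 in overexpression discs, against 43.0 in control discs.

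Of the early zygotic genes with control regions bound by Zelda, none passed. Of 40 listed genes, 5 were listed at 0 in RNAi discs, 4 in overexpression discs and 5 in control discs; 26 were tested in each comparison and 23 were expressed for RNAi and 24 for overexpression. The authors' Cuffdiff test called none. At an unadjusted deposited p of 0.05 or less 4 were lower in RNAi discs and 6 in overexpression discs, none higher, against 409 of 11314 and 635 of 11372 over all tested loci. Of the expressed ones 19 were below the control in each comparison, against 5235 of 9891 and 4807 of 9977 over all expressed loci. The median was -0.64 for RNAi and -0.70 for overexpression, or -0.50 and -0.65 once the length trend was subtracted. The SoxB gene SoxN was at 3.41 and 2.21 FPKM in RNAi and overexpression discs, against 8.46 in control discs. The BMP inhibitor gene sog was at 5.54 FPKM in RNAi and 4.70 in overexpression discs, against 15.0 in control discs, and the proneural gene sc at 37.6 FPKM in RNAi and 32.8 in overexpression discs, against 29.1 in control discs. The implied SE of sc was 2.36 for RNAi and 2.21 for overexpression.

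Among partners of Scribbler and genes it is known to repress, Gug was the one called. Gug encodes Atrophin and was at 6.99 FPKM in RNAi discs and 4.59 in overexpression discs, against 28.3 in control discs; the authors' deposited table gave q = 0.139 for RNAi and 0.026 for overexpression. Of 9 tested genes, 0 were called for RNAi and 1 for overexpression, where 0.610% and 1.06% of all tested loci were called lower. At an unadjusted deposited p of 0.05 or less 1 was lower for RNAi and 3 for overexpression, against 409 of 11314 and 635 of 11372 tested loci. The list medians were -1.07 for RNAi and -1.25 for overexpression, or -0.89 and -1.03 once the length trend was subtracted. The corepressor gene gro was at 17.1 FPKM in RNAi and 12.8 in overexpression discs, against 45.4 in control discs. Of the genes that Scribbler holds down elsewhere, the Runt gene run was at 0.658 and 0.422 FPKM in RNAi and overexpression discs, against 1.81 in control discs, and the Dpp receptor gene tkv at 41.8 FPKM in RNAi and 42.5 in overexpression discs, against 61.2 in control discs. Neither was called in the authors' deposited table.

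Of 16 genes for the targeting of photoreceptor axons to the lamina, the process that needs sbb in the eye, the authors' deposited table called 0 for RNAi and 1 for overexpression; 3 and 5 were lower at an unadjusted p of 0.05 or less. Over all tested loci 0.610% and 1.06% were called lower, and 409 of 11314 and 635 of 11372 were lower at that p. The called gene was jeb, the ligand of the Alk receptor, at 0.666 FPKM in RNAi discs and 0.512 in overexpression discs, against 3.48 in control discs. The actin-binding gene bif was at 14.0 FPKM in RNAi and 9.34 in overexpression discs, against 44.3 in control discs, and the receptor phosphatase gene Ptp69D at 20.5 FPKM in RNAi and 19.4 in overexpression discs, against 16.4 in control discs. The median was -0.87 and -1.06, or -0.06 and -0.22 once the length trend was subtracted.

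Of the 14 genes listed for the disco network or as ventral head or appendage factors, none was called in either comparison by the authors' Cuffdiff test. At an unadjusted p of 0.05 or less 3 for RNAi and 6 for overexpression were lower, against 409 of 11314 and 635 of 11372 tested loci. Of the 12 expressed members 11 were below the control in each comparison, against 5235 of 9891 and 4807 of 9977 over all expressed loci. The list medians were -0.98 for RNAi and -1.26 for overexpression, or -0.69 and -0.77 once the length trend was subtracted. The distal appendage gene Dll was at 10.1 FPKM in RNAi discs and 9.15 in overexpression discs, against 26.2 in control discs. The head gap gene ems was at 3.91 FPKM in RNAi and 2.62 in overexpression discs, against 7.38 in control discs, the Hox gene Dfd at 6.70 FPKM in RNAi and 5.19 in overexpression discs, against 10.0 in control discs, and the Hox cofactor gene exd at 144 FPKM in RNAi and 146 in overexpression discs, against 126 in control discs. In the antennal disc list, which shares Dll, 3 of 9 tested genes for RNAi and 7 for overexpression were lower at an unadjusted deposited p of 0.05 or less. Over all tested loci these were 409 of 11314 and 635 of 11372. The antennal list medians were -1.19 for RNAi and -1.64 for overexpression, or -1.10 and -1.35 once the length trend was subtracted. The authors' deposited table called 0 of the 9 for RNAi and 1 for overexpression, against 0.610% and 1.06% of all tested loci called lower. The called gene was ss, the antennal identity factor, at 2.64 FPKM in RNAi and 2.00 in overexpression discs, against 9.27 in control discs.

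Most C2H2 zinc finger genes were not called. The list was chosen with earlier results of these data known, so nothing is read from its share of called genes. Of 61 tested for RNAi the authors' deposited table called 3 lower and none higher. Of 60 for overexpression it called 9 lower and none higher. Over all tested loci 0.610% and 1.06% were called lower. At the unadjusted p limit used for the other lists, 21 were lower for RNAi and 24 for overexpression, and none higher. Over all tested loci 409 of 11314 and 635 of 11372 were lower at that limit. The expressed zinc finger genes had a median of -1.06 for RNAi and -1.16 for overexpression, with 53 of 57 and 53 of 58 below the control. Over all expressed loci 5235 of 9891 and 4807 of 9977 were below it. With the length trend removed the list medians were -0.60 for RNAi and -0.71 for overexpression. The wing and leg gene rn was at 2.54 FPKM in RNAi discs and 2.12 in overexpression discs, against 14.4 in control discs. The spalt gene salm was at 1.65 FPKM in RNAi and 1.49 in overexpression discs, against 7.48 in control discs. Both were called in both comparisons, as was opa. Blimp-1, peb, gl, crol, scrt and klu were called in overexpression discs alone. Apart from opa and gl, the called genes had longest transcripts between 4792 and 9075 nt. Of all tested loci of 4000 to under 8000 nt, 1.45% were called lower for RNAi and 3.75% for overexpression. Of those of 8000 nt or more, 6.31% and 12.4% were. The differences between the treated groups were not tested. The photoreceptor gene gl, for instance, was at 12.1 FPKM in RNAi and 7.74 in overexpression discs, against 32.0 in control discs. For RNAi only ab reached a fold as low as those of the 3 genes, at 6.71 FPKM against 303 in control discs, in a locus that joins 2 genes and at an implied SE of 19.8, so that it was not measurable (named after its values were seen). For overexpression no listed zinc finger gene did.

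Of the retinal markers themselves, the authors' deposited table called 0 of 14 for RNAi and 2 lower for overexpression, gl and lz, against 0.610% and 1.06% of all tested loci. For RNAi 2 and for overexpression 6 were lower at an unadjusted deposited p of 0.05 or less, against 409 of 11314 and 635 of 11372 tested loci. The cell fate gene lz was at 3.99 FPKM in RNAi discs and 3.03 in overexpression discs, against 16.4 in control discs. Closer to the control lay toy, at 87.7 FPKM in RNAi and 93.7 in overexpression discs, against 107 in control discs. There ey was at 17.6 FPKM in RNAi and 19.3 in overexpression discs, against 25.1 in control discs. Both lie on chromosome 4, where the median log2 fold of expressed loci was 0.32 for RNAi and 0.50 for overexpression. The markers ato, sens and ro also lay near the control. Other early eye genes fell further, with log2 folds for RNAi and overexpression of -0.95 and -1.24 for so, -1.32 and -1.73 for eya and -1.55 and -1.76 for dac. The median of the retinal list was -1.09 and -1.34, or -0.40 and -0.70 with the length trend subtracted. The lists were chosen with earlier results of these data known, and nothing is read from them about what sets the level of vfl, sbb and disco.

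**Figure D5:**
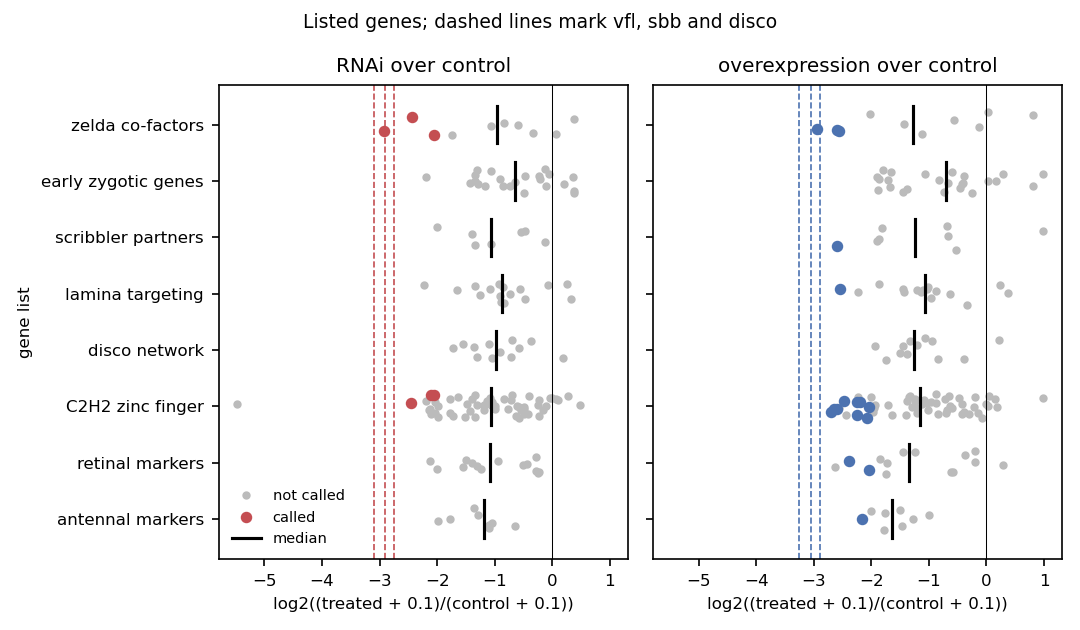
Log2 of (treated + 0.1) over (control + 0.1) of the expressed genes of 8 lists for RNAi (left) and overexpression (right); each point is a gene, coloured where the authors' table called it, bars are list medians, and the dashed lines mark vfl, sbb and disco. Apart from nej among the Zelda co-factors, and ab for RNAi, the points lie to the right of all 3 dashed lines.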

How the data were processed

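Per the submitters' processing notes, TopHat, Bowtie, Cufflinks and Cuffdiff 2.1.1 were used with the dm6 build; no source used here gives their annotation or settings. The authors deposited 1 FPKM value per group in 2 tables, with the score, p-value and q-value of their Cuffdiff test; the last deposited column, in another unit, marks a p-value of 0.05 or less. The deposited scores for overexpression, given as control against treated, were turned round. No depth or value per library was given, so the limma fit planned for such values was not run. With pandas 2.3.3 and numpy 2.4.6 the log2 folds, the implied SE and the running median were computed. The running median and the Benjamini-Hochberg step were tested on simulated data. The Benjamini-Hochberg adjustment was recomputed across all tested genes of each table.

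Transcript lengths came from Ensembl 115, matched for 98.6% of loci by symbol. The members and the 14 lists (192 symbols, all matched) were chosen with earlier results of these data known. Named are the 3 genes, Hsromega, osa, nej, the nearest 2 expressed loci on each side and those overlapping, the 5 nearest by pattern, and from each list called genes and up to 4 others of smallest q. Other list genes were named for their known role after their values were seen. Planned promoter motif groups were not analysed here.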

Additional observations from a re-analysis of the deposited data

How the results depend on the processing

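The folds of vfl, sbb and disco stayed below 0 in all 48 recomputations, between -3.39 and -1.63 on the log2 scale, and 44 moved by less than the implied SE. The others had a length trend subtracted: by longest transcript vfl stood at -2.07 for RNAi and -1.86 for overexpression and sbb at -1.63 for overexpression, and by coding length sbb stood at -1.76 for overexpression. The trends with coding length and with level, and centring on the chromosome arm, were chosen after seeing the data.

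The number of called loci rested on the authors' adjustment. For RNAi 93 became 14 when Benjamini-Hochberg was recomputed over the table, 14 over loci of 1 FPKM or more and 16 from the normal p of the deposited statistic. For overexpression 136 became 0, 0 and 11, with 701 at an unadjusted Cuffdiff p of 0.05 or less. None of the 3 genes passed under any of these settings, with an adjusted p of 0.124 or more. Leaving out loci of several genes gave 90 and 130, with all 3 genes called.

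Of 112 recomputed list medians 4 changed sign, all with the length trend subtracted: neuroblast markers for RNAi at 0.055, glia markers at 0.10 for RNAi and 0.094 for overexpression, and salivary gland markers for overexpression at -0.15. The cause was not tested. No paired analysis was possible because no value per library was given, and for the same reason no replicate was left out. The promoter motif settings were not run. Depth is unknown, which limits disco most, at 1.10 FPKM.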
